A study of Mus musculus with 6 samples.

Results

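The 10 core genes of nonhomologous end-joining, Xrcc5, Xrcc6, Prkdc, Dclre1c, Poll, Polm, Lig4, Xrcc4, Nhej1 and Trp53bp1, were followed through the ATACseq peaks at their promoters, 10 of the 55304 genes in the annotation. They were chosen by name for their roles in the pathway, with earlier results of these data known. A promoter peak was one that reached within 2000 bp of a transcription start site (TSS) of the gene in the complete GENCODE M21 annotation of mm10. Of the 28432 consensus peaks present in all 6 libraries, 14083 were promoter peaks of some gene and 11 belonged to these genes, 2 of them to Lig4. Where a gene had several, the peak with the highest mean pileup was taken as its main peak.

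Nonhomologous end-joining reseals DNA double-strand breaks without a template. The Ku ring, made by Xrcc6 (Ku70) and Xrcc5 (Ku80), slides onto the broken end and draws in the kinase encoded by Prkdc (DNA-PKcs), the nuclease Artemis (Dclre1c) trims ends that cannot be joined, the polymerases lambda (Poll) and mu (Polm) fill gaps, and the ligase Lig4 with Xrcc4 and Nhej1 (XLF) seals the strands. The 53BP1 protein (Trp53bp1) holds ends back from resection and so favours this route, which works throughout the cell cycle and repairs most breaks left by ionising radiation.

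GL261, a mouse glioma cell line stably expressing pEGFP-N1, was cultured for 16 h at 21% O2 (normoxia), 1% O2 or <0.1% O2, and the cells were fixed with formaldehyde while still hypoxic. All 3 groups came from this 1 line and had 2 libraries each, labelled replicate 1 and 2. Nothing used here says that these were separate cultures, so p-values measure only the spread between libraries. The main fit took that spread mostly from other peaks of similar height, and less from the peak itself. In ATACseq a transposase cuts open DNA, and the peak caller gave each peak a fold over its local background and a p-value, from which the whole-number pileup of fragments at the summit and the background were recovered for 100% of peaks. The mean genome coverage was 2.16 and 2.36 fragments in normoxia but 2.93 and 2.99 under 1% O2 and 3.35 and 3.18 under <0.1% O2. Unscaled pileups below rise with that depth, and scaled pileups were set to the same median over all 28432 peaks in each library. Of 8 neural and glioma markers, 7 had a promoter peak in all 6 libraries and Sox9 had none, and of 5 markers of other cells Ptprc, Cd3e, Aif1 and Epcam had none and Pecam1 had one in 5 libraries. In a population of cells, a peak that is lower in every cell and one lost from some of the cells cannot be told apart.

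RefSeq promoter sequences of GRCm38.p6, the assembly of mm10, were found for 8 of the 10 genes, with 2 entries for Lig4 and none for Prkdc or Poll. Shown here are the genes whose summit pileup, scaled to a common median, changed most (Xrcc4) and least (Nhej1) at <0.1% O2. Added after their values were seen are Polm, the gene that rose, and both entries of Lig4, the gene with a peak at each of 2 starts. Each runs 5′ to 3′ on the strand of the gene, all on the minus strand, from 250 bases before to 50 after the RefSeq start. Capitals mark the letters of any motif searched.
Xrcc4, chr13:90089559-90089858: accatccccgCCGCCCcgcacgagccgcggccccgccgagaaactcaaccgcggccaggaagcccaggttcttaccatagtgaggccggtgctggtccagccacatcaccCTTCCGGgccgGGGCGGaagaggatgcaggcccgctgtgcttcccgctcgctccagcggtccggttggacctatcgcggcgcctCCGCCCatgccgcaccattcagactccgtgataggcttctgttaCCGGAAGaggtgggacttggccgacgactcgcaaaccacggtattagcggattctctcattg
Nhej1, chr1:75125177-75125476: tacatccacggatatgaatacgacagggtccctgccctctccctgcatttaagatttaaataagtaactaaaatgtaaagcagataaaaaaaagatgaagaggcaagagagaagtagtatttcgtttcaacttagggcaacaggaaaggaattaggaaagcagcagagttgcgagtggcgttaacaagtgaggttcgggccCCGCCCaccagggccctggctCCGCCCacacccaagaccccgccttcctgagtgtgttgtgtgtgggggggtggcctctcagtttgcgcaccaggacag
Polm, chr11:5837967-5838266: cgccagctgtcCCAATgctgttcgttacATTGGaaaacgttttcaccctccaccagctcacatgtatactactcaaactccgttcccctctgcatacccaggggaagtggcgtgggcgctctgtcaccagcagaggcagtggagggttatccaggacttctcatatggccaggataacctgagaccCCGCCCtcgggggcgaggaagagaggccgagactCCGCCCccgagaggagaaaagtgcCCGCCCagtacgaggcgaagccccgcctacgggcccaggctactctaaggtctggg
Lig4, upstream start, chr8:9977631-9977930: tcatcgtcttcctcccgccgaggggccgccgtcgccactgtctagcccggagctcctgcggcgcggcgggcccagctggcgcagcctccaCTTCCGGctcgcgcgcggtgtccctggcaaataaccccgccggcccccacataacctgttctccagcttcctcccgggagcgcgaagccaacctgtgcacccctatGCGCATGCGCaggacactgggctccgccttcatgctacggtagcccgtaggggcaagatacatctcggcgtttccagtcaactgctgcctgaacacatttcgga
Lig4, downstream start, chr8:9976262-9976561: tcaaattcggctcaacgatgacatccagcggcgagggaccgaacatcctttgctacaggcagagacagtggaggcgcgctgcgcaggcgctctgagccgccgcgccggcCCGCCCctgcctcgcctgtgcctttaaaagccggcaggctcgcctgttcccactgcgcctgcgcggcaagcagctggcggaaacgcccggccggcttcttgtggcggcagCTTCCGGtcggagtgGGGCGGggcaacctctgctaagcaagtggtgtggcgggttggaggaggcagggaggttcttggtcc

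The motifs were searched on both strands over the 9 promoter sequences of the 8 genes and over all 32851 promoters of the table. The SP/KLF box GGGCGG was in 7 of the 9 sequences (35.7% of all promoters), 3 times in Xrcc4 and in Polm, 2 times in Nhej1 and in the downstream Lig4 sequence, and not in the upstream Lig4 sequence. The ETS motif CCGGAAG was in 4 of the 9 (8.86% of all promoters), namely Xrcc4, Dclre1c and both Lig4 sequences. The NRF1 core GCATGCGC was in 2 of the 9 (2.71% of all promoters), the upstream Lig4 sequence, where 2 matches overlap, and Xrcc5. The NF-Y motif CCAAT was in 4 of the 9 (37.4% of all promoters), and the hypoxia response core ACGTG in 3 of the 9 (19.6% of all promoters), Xrcc5, Dclre1c and Trp53bp1. None of the 9 held the letters searched for E2F (TTTCGCGC, TTTGGCGC or TTCCCGCC, in 2.96% of all promoters), YY1 (AAGATGG, 6.34%), CRE (TGACGTCA, 1.79%) or ZBTB33 (CTCGCGAG, 0.919%). The 9 sequences had a median GC content of 60.3% and 20 CpG, against 52.7% and 7 over all promoters of the table. These matches describe the letters and are not evidence that a factor binds.

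Every gene had a promoter peak in every library, 10 of 10 in each of the 6. Counted in full, they had 11 and 11 promoter peaks in normoxia, 13 and 11 under 1% O2 and 14 and 13 under <0.1% O2. The further ones reached the window in hypoxic libraries only and lay at Xrcc6, Dclre1c and Trp53bp1. At Xrcc6 a peak also overlapped that stretch in normoxic replicate 2, with a pileup of 49, without reaching the window. The normoxic libraries were the shallowest, and the part of depth in these counts was not tested. The main peaks stood high in normoxia, with a median percentile rank among the 28432 peaks of 77.6 by summit pileup against 63.6 for all promoter peaks. By fold it was 80.9 against 59.2. A main peak is the highest of its gene, while all promoter peaks include lesser ones, so the 2 sets were not chosen alike. The median GC content of the main peaks (59.3% against 58.8%) and their width (956 against 959 bp) were close to those of all promoter peaks. By scaled pileup in normoxia, Polm, Xrcc4 and Xrcc6 were the highest and Poll was the lowest.

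**Figure D1:**
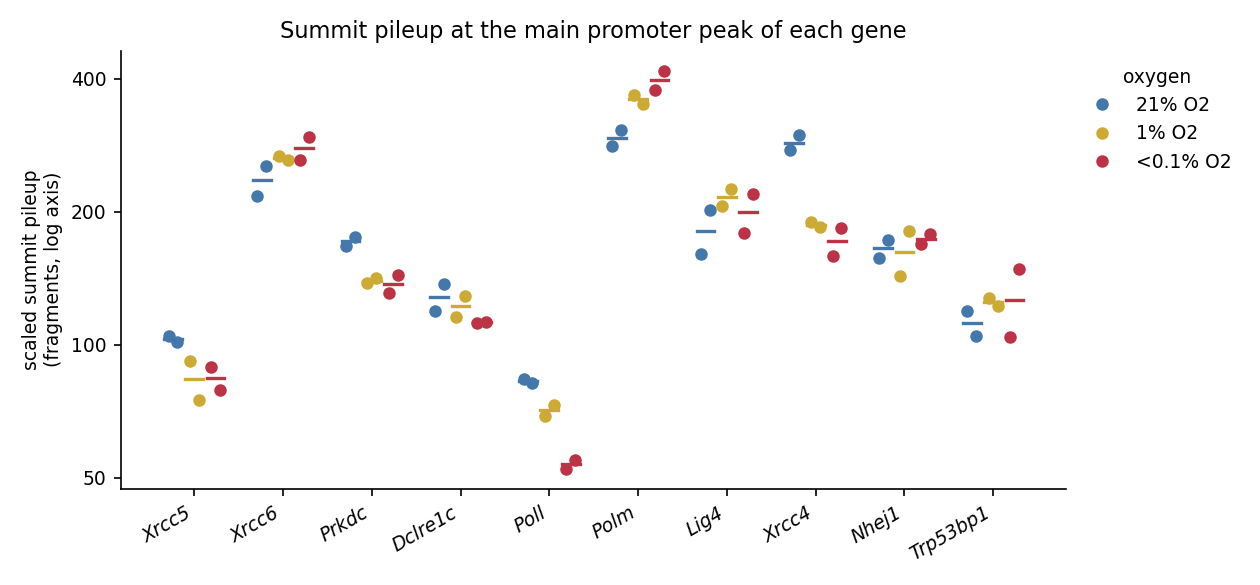
Scaled summit pileup (fragments, log axis) at the main promoter peak of each gene. Each point is 1 library, each short line the mean of the 2 libraries of an oxygen level. Both hypoxic levels lie below normoxia without overlap for Xrcc4, Poll, Prkdc and Xrcc5, and above it for Polm and Xrcc6. The share of all peaks that separate in this way was not counted. Non-overlap of scaled pileups, here and in the text, therefore only describes the points.

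The promoters did not move as one under hypoxia: at <0.1% O2 the summit pileup of 3 main peaks fell (Xrcc4, Poll and Prkdc) and that of 1 rose (Polm), with 6 not passing the test. The test was limma on log2 scaled pileups over all 28432 peaks, with Benjamini-Hochberg adjustment and calls at an adjusted p under 0.05. The same test called 36.4% of all promoter peaks lower and 15.2% higher, and 23.9% and 23.6% of all peaks, so calls of 3 and 1 in 10 are near the background. The median log2 change was -0.06 over the 10 main peaks, -0.17 over promoter peaks and 0.00 over all peaks. At 1% O2 2 main peaks were lower (Xrcc4 and Prkdc) and 1 higher (Polm), against 21.5% and 13.6% of promoter peaks, and the median was -0.05 for the genes and -0.06 for promoter peaks. Between <0.1% and 1% O2 limma called 0 of 10 main peaks, against 17.5% of promoter peaks lower and 5.96% higher, and at an unadjusted p under 0.05 it was 1 of 10, Poll. Dividing pileups by genome coverage in place of the common median shifts all peaks by a median of -0.17 at <0.1% O2 and 0.17 at 1% O2 (log2), so these directions are relative to the other peaks. With that scaling, 2 main peaks were lower at <0.1% O2 (Xrcc4 and Poll) and 0 higher, against 32.8% and 3.76% of promoter peaks. At 1% O2 limma on these values called 0 of 10, against 3.27% lower and 9.88% higher, with 1 lower and 2 higher at an unadjusted p under 0.05. With the GC trend subtracted, 2 were lower (Xrcc4 and Xrcc5) and 3 higher (Xrcc6, Polm and Lig4) at <0.1% O2, against 23.3% and 20.8% of promoter peaks. With quantile normalization 2 were lower (Xrcc4 and Poll) and 2 higher (Xrcc6 and Polm), against 35.9% and 16.3%.

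The fold, which divides the pileup by the local background of the same peak, gave another picture. By limma on log2 fold at <0.1% O2, 0 of 10 main peaks were lower (9.06% of promoter peaks) and 1 was higher (3.71%), Lig4, with 2 lower and 1 higher at an unadjusted p under 0.05. At 1% O2 0 of 10 passed in either direction (1.75% lower and 1.89% higher of promoter peaks), with 1 lower and 1 higher at an unadjusted p under 0.05. By percentile rank of the fold, a call needed non-overlapping groups and a shift of the group mean by 10 points or more, a rule with no test, since an exact permutation test of 2 libraries against 2 cannot go below 0.33. At <0.1% O2 this rule called Xrcc5 and Poll lower (25.3% of promoter peaks) and Prkdc and Lig4 higher (13.3%). At 1% O2 it called Xrcc5 and Xrcc4 lower (16.6%) and Lig4 higher (12.5%). Between <0.1% and 1% O2 it called Poll lower (19.7%), by -15.3 points, and Prkdc and Xrcc4 higher (10.2%), by 14.1 and 13.9 points. Ranked by summit pileup, Prkdc and Xrcc4 turned sign there, at -1.13 and -3.70 points.

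**Figure D2:**
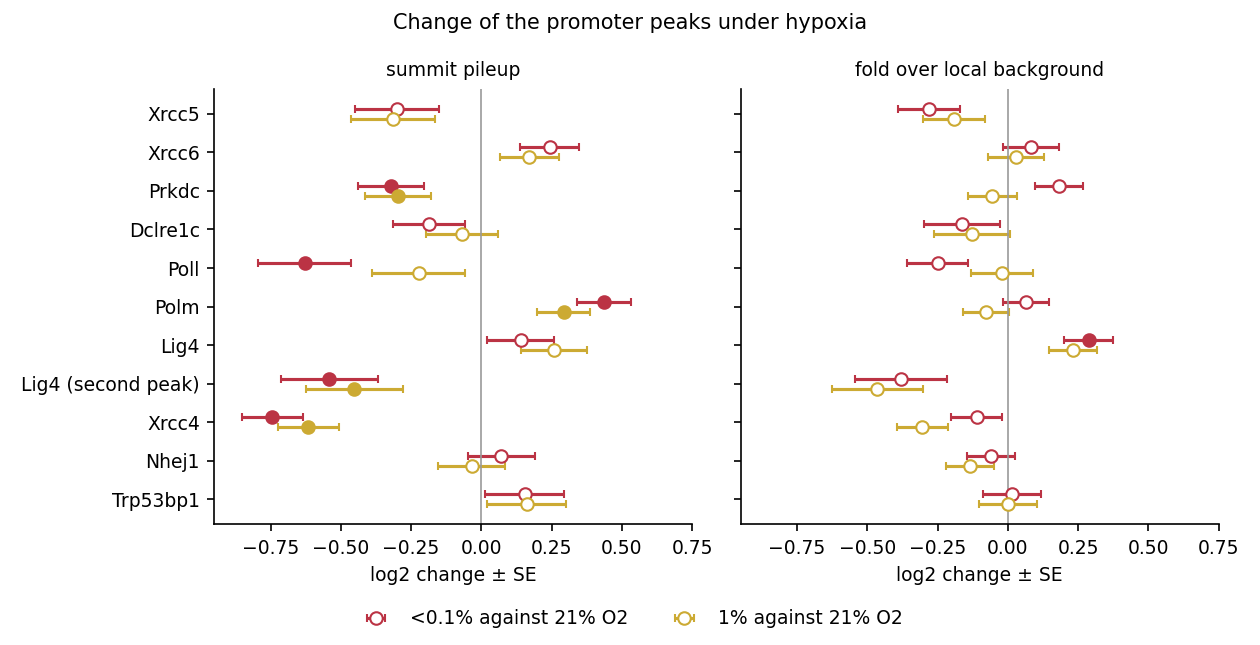
Log2 change of the promoter peaks (x axis, with the standard error from limma) in summit pileup (left) and in fold over the local background (right), for <0.1% and for 1% O2 against 21% O2. Filled points passed an adjusted p of 0.05. For pileup, Xrcc4, Poll, Prkdc, Polm and the second Lig4 peak are filled at <0.1% O2, and for fold only the main Lig4 peak is.

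End binding begins with the Ku pair, whose promoters leaned in opposite directions without either passing the test. The Xrcc5 peak (chr1:72306700-72307724) had summit pileups of 74 and 94 fragments in normoxia, 115 and 85 under 1% O2 and 102 and 75 under <0.1% O2. After scaling, both libraries of each hypoxic level lay below both normoxic ones, at 103 ± 2.33 (mean ± SD, n = 2) in normoxia, 83.6 ± 12.1 at 1% O2 and 84.1 ± 7.08 at <0.1% O2. The log2 change in pileup was -0.30 ± 0.15 (SE) at <0.1% O2 and -0.31 ± 0.15 at 1% O2 (limma, adjusted p = 0.0968 and 0.0974). The value at 1% O2 was -0.17 without 1% O2 replicate 2 and -0.46 without 1% O2 replicate 1 (limma, adjusted p = 0.555 and 0.0645). Its fold rank was 81.1 and 77.6 in normoxia, 75.4 and 56.6 under 1% O2 and 65.3 and 52.7 under <0.1% O2. Its mean fell by 13.3 points at 1% O2, less than the gap between those replicates, and fell by 20.3 points at <0.1% O2. Subtracting the trend with GC content, which is low at this peak (46.1%), brought the pileup change at <0.1% O2 to -0.49 (limma, adjusted p = 0.00565).

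Xrcc6, the other Ku gene, shares its peak (chr15:82015482-82016905) with Desi1, which has a start site within the window. Its pileups were 153 and 235 fragments in normoxia, 334 and 296 under 1% O2 and 300 and 279 under <0.1% O2. All 4 hypoxic values stood above both normoxic ones after scaling, 236 ± 26.3 in normoxia against 264 ± 4.42 and 278 ± 22.8 (n = 2 each). Limma put the log2 change at 0.24 ± 0.10 for <0.1% O2 and 0.17 ± 0.10 at 1% O2 (limma, adjusted p = 0.0519 and 0.200). The value at <0.1% O2 passed with the GC trend subtracted, at 0.49 (limma, adjusted p = 7.54e-04), and also without normoxic replicate 2, at 0.36 (limma, adjusted p = 0.00966), and without <0.1% O2 replicate 1, at 0.33 (limma, adjusted p = 0.0496). It was 0.13 without normoxic replicate 1, 0.16 without <0.1% O2 replicate 2 and 0.08 scaled by genome coverage (limma, adjusted p = 0.364, 0.360 and 0.818). The value at 1% O2 was 0.06 without normoxic replicate 1 (limma, adjusted p = 0.730), and it passed without normoxic replicate 2, at 0.29, and with quantile normalization, at 0.28 (limma, adjusted p = 0.0478 and 0.0162). An upstream peak reached the window of an earlier Xrcc6 start site in 2 libraries, 1% O2 replicate 1 and <0.1% O2 replicate 1, with pileups of 116 and 130, but a peak overlapped that stretch in 5 of 6 libraries, all but normoxic replicate 1.

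Prkdc, the catalytic kinase that Ku recruits, fell in pileup but not in fold. Its peak (chr16:15637100-15638097) lies between Prkdc and Mcm4, a subunit of the replicative helicase, and its summit lay at -397 to -356 bp from the nearest Prkdc start site (negative is upstream). Pileups were 118 and 162 fragments in normoxia, 172 and 160 under 1% O2 and 150 and 136 under <0.1% O2. Scaled values did not overlap between normoxia (171 ± 5.54, n = 2) and either 1% O2 (140 ± 2.45) or <0.1% O2 (137 ± 8.77). On the log2 scale Prkdc moved by -0.32 ± 0.12 at <0.1% O2 and by -0.30 ± 0.12 at 1% O2 (limma, adjusted p = 0.0230 and 0.0446). By fold the change at <0.1% O2 was 0.18 ± 0.09 (limma, adjusted p = 0.178), and the fold rank went from 81.4 and 78.8 in normoxia to 89.1 and 93.1. The local background at <0.1% O2 was 0.847 times the normoxic one before scaling for depth. Divided by genome coverage, that background was 4.05 and 4.75 in normoxia and 2.68 and 2.49 at <0.1% O2. The fall in pileup at <0.1% O2 passed in 4 of the 6 fits that leave out a library, with changes from -0.39 to -0.26 over the 6. It did not pass without normoxic replicate 2 (-0.29, limma, adjusted p = 0.0901) or without <0.1% O2 replicate 1 (-0.26, limma, adjusted p = 0.168). With the GC trend subtracted it was -0.08 (limma, adjusted p = 0.660), and of 21 alternatives in all, 11 kept the call. Among those 11, any overlap of replicates, the narrower window, the peak nearest to a TSS and the basic transcript set returned the same peak and values. They could not change the call. Leaving out a 1% O2 library could not move the change of -0.32 either. At 1% O2 the fall passed in 1 of those 6 fits, the one without <0.1% O2 replicate 1, with changes from -0.33 to -0.26 over the 6.

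Dclre1c, which encodes the Artemis nuclease, had the lowest fold of the main peaks, from 7.07 to 8.81 over the 6 libraries. The peak (chr2:3423692-3424517), within reach of a Meig1 start site as well, had pileups of 84 and 127 fragments in normoxia, 144 and 146 under 1% O2 and 128 and 107 under <0.1% O2. Scaled values at <0.1% O2 (112 ± 0.731, n = 2) lay below both normoxic ones (128 ± 12.9), while those at 1% O2 (122 ± 9.57) overlapped with normoxia. The log2 change was -0.19 ± 0.13 at <0.1% O2 and -0.07 ± 0.13 at 1% O2 (limma, adjusted p = 0.237 and 0.711). The first of these was -0.29 without normoxic replicate 1 and -0.08 without normoxic replicate 2. The second turned sign, from -0.17 to 0.03 when 1 library was left out, and was 0.10 scaled by genome coverage. A small peak near an internal start site (chr2:3453052-3453510) was called in 1% O2 replicate 1 with a pileup of 20 and in both <0.1% O2 libraries with 32 and 27, and in neither normoxic library, which were the shallowest.

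The gap-filling polymerases, close relatives in sequence and task, moved apart. Poll, the lower of the pair (chr19:45560099-45560876, shared with Gm17018), had pileups of 59 and 76 fragments in normoxia, 86 and 83 under 1% O2 and 60 and 52 under <0.1% O2. The scaled values stepped down from normoxia (82.9 ± 1.05, n = 2) through 1% O2 (71.1 ± 3.10) to <0.1% O2 (53.6 ± 1.72), with no overlap between any pair of levels. At <0.1% O2 the log2 change was -0.63 ± 0.16 (limma, adjusted p = 0.00188), and at 1% O2 it was -0.22 ± 0.16 (limma, adjusted p = 0.301). The difference between the hypoxic levels, -0.41 ± 0.16, did not pass (limma, adjusted p = 0.0687). Fold rank fell by 16.4 points at <0.1% O2, from 56.2 and 54.3 to 38.4 and 39.3, so both measures moved down. Tested on log2 fold the change was -0.25 ± 0.11 (limma, adjusted p = 0.148), and on pileup with the GC trend subtracted it was -0.43 (limma, adjusted p = 0.0619).

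Polm was the gene that rose. Its peak (chr11:5837468-5838381), reached by no start site of another gene, had the highest pileups of all, 198 and 283 fragments in normoxia, 459 and 397 under 1% O2 and 432 and 395 under <0.1% O2. Every hypoxic value exceeded both normoxic ones after scaling, 293 ± 17.8 (n = 2) in normoxia against 359 ± 12.2 at 1% O2 and 397 ± 27.7 at <0.1% O2. This was a log2 change of 0.44 ± 0.10 at <0.1% O2 and 0.29 ± 0.10 at 1% O2 (limma, adjusted p = 2.92e-04 and 0.0154). The background under the peak was 1.61 and 1.65 times the normoxic one at <0.1% and 1% O2, before scaling for depth. Divided by genome coverage it was 6.59 and 8.01 in normoxia, 10.1 and 8.33 at 1% O2 and 8.37 and 7.92 at <0.1% O2. By fold the change was 0.06 ± 0.08 at <0.1% O2 and -0.08 ± 0.08 at 1% O2 (limma, adjusted p = 0.631 and 0.589). Leaving out any 1 of the 6 libraries kept the call at <0.1% O2, at 0.36 to 0.51, but scaled by genome coverage it was 0.27 (limma, adjusted p = 0.352). The call at 1% O2 was lost without normoxic replicate 1 (0.23), 1% O2 replicate 1 (0.26) or 1% O2 replicate 2 (0.33), with limma adjusted p of 0.0784, 0.142 and 0.0580.

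**Figure D3:**
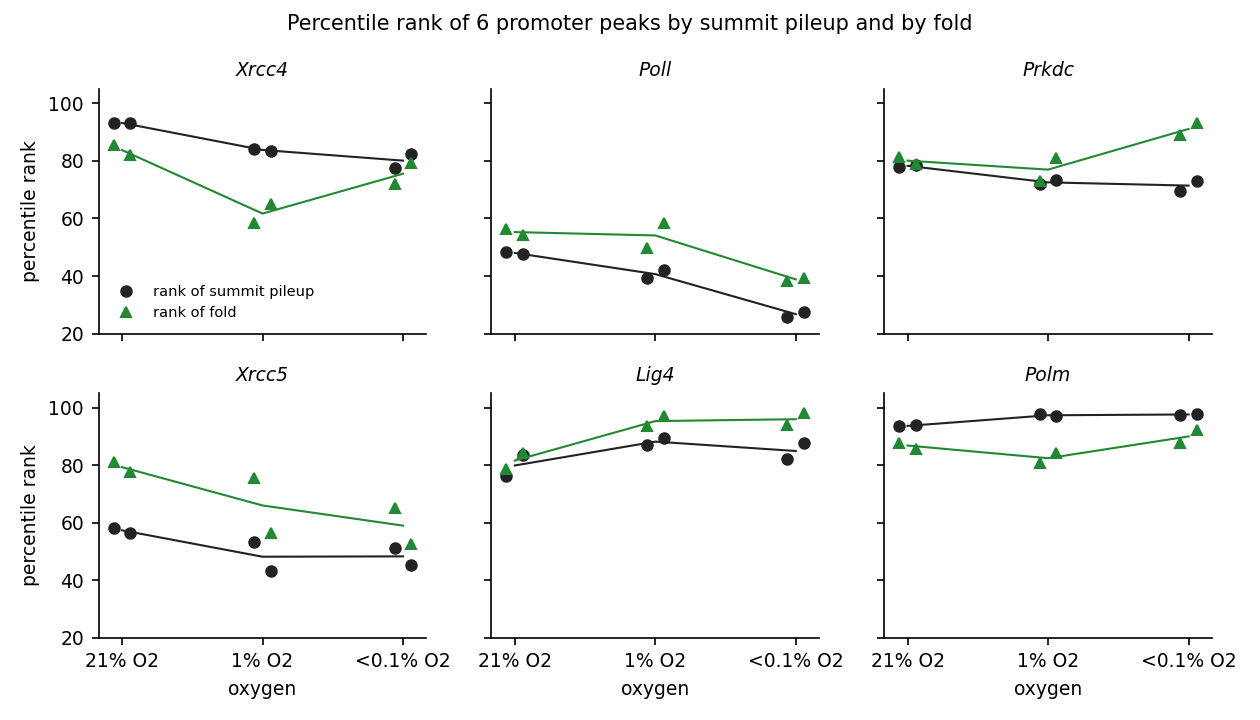
Percentile rank among the 28432 peaks (y axis) of 6 main promoter peaks by summit pileup (circles) and by fold (triangles) at each oxygen level, 1 symbol per library with lines through the means. For Poll and Xrcc5 both ranks go down at <0.1% O2. For Prkdc they part, the fold rank reaching 89.1 and 93.1 while the pileup rank is 69.7 and 73.2.

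At the ligation step, the log2 change of median-scaled pileup at <0.1% O2 was -0.74 for Xrcc4, 0.14 for Lig4 and 0.07 for Nhej1. Xrcc4, the scaffold that stabilises Lig4, has its peak (chr13:90088957-90090116) at a start region shared with Tmem167. Its pileups were 194 and 275 fragments in normoxia, 236 and 209 under 1% O2 and 182 and 174 under <0.1% O2, lower at <0.1% O2 even before scaling, although those libraries were deeper. Scaled, both hypoxic levels (187 ± 3.21 and 171 ± 17.3, n = 2 each) were far below normoxia (286 ± 15.7). Its log2 change was -0.74 ± 0.11 at <0.1% O2 and -0.62 ± 0.11 at 1% O2 (limma, adjusted p = 6.04e-07 and 2.33e-05). On the linear scale the pileup fell by 40.3% and fell by 34.7%. Its rank by pileup went from 93.1 and 93.3 in normoxia to 84.1 and 83.5 at 1% O2 and 77.7 and 82.5 at <0.1% O2. The call held without any 1 of the 6 libraries at both levels, at -0.85 to -0.64 for <0.1% O2. By fold it did not pass, at -0.11 ± 0.09 for <0.1% O2 and -0.30 ± 0.09 for 1% O2 (limma, adjusted p = 0.447 and 0.0697). The background under the peak at <0.1% O2 was 0.772 times the normoxic one before scaling for depth. Divided by genome coverage, that background was 6.63 and 8.08 in normoxia and 3.98 and 3.91 at <0.1% O2. Scaled by genome coverage, the pileup change at 1% O2 was -0.45 (limma, adjusted p = 0.135).

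Lig4, the ligase itself, had a peak at each of its 2 start sites, the only gene of the 10 with more than 1 promoter peak in all 6 libraries. At the downstream start (chr8:9976084-9976612, within reach of a start site of Abhd13) pileups were 113 and 187 fragments in normoxia, 257 and 255 under 1% O2 and 205 and 208 under <0.1% O2. Scaled values overlapped between normoxia (181 ± 29.7, n = 2) and <0.1% O2 (199 ± 28.5), whereas both 1% O2 libraries (215 ± 13.6) were above normoxia. The log2 change in pileup was 0.14 ± 0.12 at <0.1% O2 and 0.26 ± 0.12 at 1% O2 (limma, adjusted p = 0.344 and 0.0841). Without normoxic replicate 1 the first of these was -0.03 and without <0.1% O2 replicate 2 it was -0.01, while it was 0.31 without normoxic replicate 2 (limma, adjusted p = 0.0511) and passed with the GC trend subtracted, at 0.46 (limma, adjusted p = 0.00619). The second ranged from 0.09 to 0.43 when 1 library was left out, and passed without normoxic replicate 2 (0.43) and with quantile normalization (0.37, limma, adjusted p = 0.00980 and 0.0127). The fold was higher at <0.1% O2, by 0.29 ± 0.09 (limma, adjusted p = 0.0492), and its rank rose from 78.8 and 84.4 in normoxia to 93.5 and 97.2 at 1% O2 and 93.9 and 98.1 at <0.1% O2.

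At the upstream Lig4 start the peak was smaller (chr8:9977231-9978017), with pileups of 57 and 72 fragments in normoxia, 68 and 70 under 1% O2 and 62 and 52 under <0.1% O2. No hypoxic value reached the normoxic ones after scaling (79.4 ± 2.11, n = 2, against 58.1 ± 5.18 at 1% O2 and 54.5 ± 0.482 at <0.1% O2). In log2 terms the change was -0.54 ± 0.17 at <0.1% O2 and -0.45 ± 0.17 at 1% O2 (limma, adjusted p = 0.00918 and 0.0366). By fold it was -0.38 ± 0.16 and -0.46 ± 0.16 (limma, adjusted p = 0.141 and 0.108). Its mean fold rank was low throughout, at 12.6 in normoxia, 4.05 at 1% O2 and 4.54 at <0.1% O2. The upstream peak thus fell in pileup where the downstream peak did not pass, and the difference between them was not tested. Start sites of other genes were looked for only at main peaks. Whether the upstream peak belongs to Lig4 alone was therefore not checked.

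Nhej1 encodes XLF, which forms filaments with Xrcc4 around the ends. Its peak (chr1:75124356-75125446), with no start site of another gene in reach, had pileups of 111 and 160 fragments in normoxia, 179 and 205 under 1% O2 and 193 and 169 under <0.1% O2. Scaled values overlapped between normoxia (165 ± 11.0, n = 2) and both 1% O2 (162 ± 26.6) and <0.1% O2 (173 ± 6.82). The log2 change was 0.07 ± 0.12 at <0.1% O2 and -0.03 ± 0.12 at 1% O2 (limma, adjusted p = 0.649 and 0.846), and its sign turned with the scaling. At <0.1% O2 it was 0.14 without normoxic replicate 2 and 0.0032 without normoxic replicate 1. The start site in this peak belongs to the complete annotation, and in the basic transcript set of GENCODE the gene had no promoter peak.

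Trp53bp1, which tips the choice toward end-joining, showed no change that passed. The peak (chr2:121270995-121271903) had pileups of 84 and 97 fragments in normoxia, 159 and 139 under 1% O2 and 119 and 141 under <0.1% O2. The <0.1% O2 replicates lay on either side of the other libraries after scaling (126 ± 31.7, n = 2), the widest spread of the 10 genes, against 112 ± 10.1 in normoxia and 125 ± 3.29 at 1% O2. The log2 change was 0.15 ± 0.14 at <0.1% O2 and 0.16 ± 0.14 at 1% O2 (limma, adjusted p = 0.384 and 0.389). It was 0.41 without <0.1% O2 replicate 1 (limma, adjusted p = 0.0408) and -0.10 without <0.1% O2 replicate 2. At 1% O2 it was 0.25 without normoxic replicate 1 and 0.07 without normoxic replicate 2. A peak inside the gene (chr2:121220114-121220423), its summits 1043 and 1035 bp from the nearest start site, was called in both <0.1% O2 libraries, with pileups of 39 and 37, and in none of the other 4.

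Genes that work beside the core pathway were taken from 3 lists and tested in the same fit. Over all promoter peaks this fit called 36.4% lower and 15.2% higher at <0.1% O2, and the fit on fold 9.06% and 3.71%. Of 9 accessory end-joining genes, 8 had a promoter peak in all 6 libraries, and at <0.1% O2 1 was lower and 2 higher, with a median log2 change of -0.15. Paxx, a paralogue of Xrcc4 that binds Ku, was higher by 0.72 ± 0.12 (limma, adjusted p = 8.36e-06), and Aplf, a Ku-binding scaffold, by 0.66 ± 0.10 (limma, adjusted p = 2.43e-06). The helicase and exonuclease gene Wrn changed by -0.35 ± 0.12 (limma, adjusted p = 0.0124). By fold, limma called 0 of the 8 in either direction, also at an unadjusted p under 0.05, with Paxx at 0.01 and Aplf at 0.05 (limma, adjusted p = 0.977 and 0.677). Dntt, a lymphoid polymerase, had a promoter peak in 4 libraries and was not tested.

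Of 16 genes of break signalling and the 53BP1 pathway, 15 were tested, and Shld3 was not found by that name in the annotation, so its promoter was not searched. At <0.1% O2 9 of the 15 were lower and 0 higher, with a median of -0.32. The largest log2 changes were -1.03 ± 0.11 for Nbn, part of the complex that senses breaks, -0.90 ± 0.10 for Paxip1, a 53BP1 partner, and -0.87 ± 0.10 for H2afx, the histone variant marked at breaks (limma, adjusted p = 2.04e-09, 6.04e-09 and 6.50e-09). By fold, 2 of the 15 were lower, and H2afx was at 0.19 (limma, adjusted p = 0.173). Of 8 alternative end-joining genes, which join ends after resection, 5 were lower and 1 higher, with a median of -0.42. The log2 change was -0.99 ± 0.12 for Rbbp8 (CtIP), which starts resection, -0.91 ± 0.14 for the flap nuclease Fen1 and -0.56 ± 0.12 for the ligase Lig3 (limma, adjusted p = 1.78e-08, 3.40e-06 and 1.54e-04). Xrcc1, the partner of Lig3, was higher by 0.33 ± 0.11 (limma, adjusted p = 0.0122). By fold, 1 of the 8 was lower and 0 higher. The lists were not tested against each other.

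**Figure D4:**
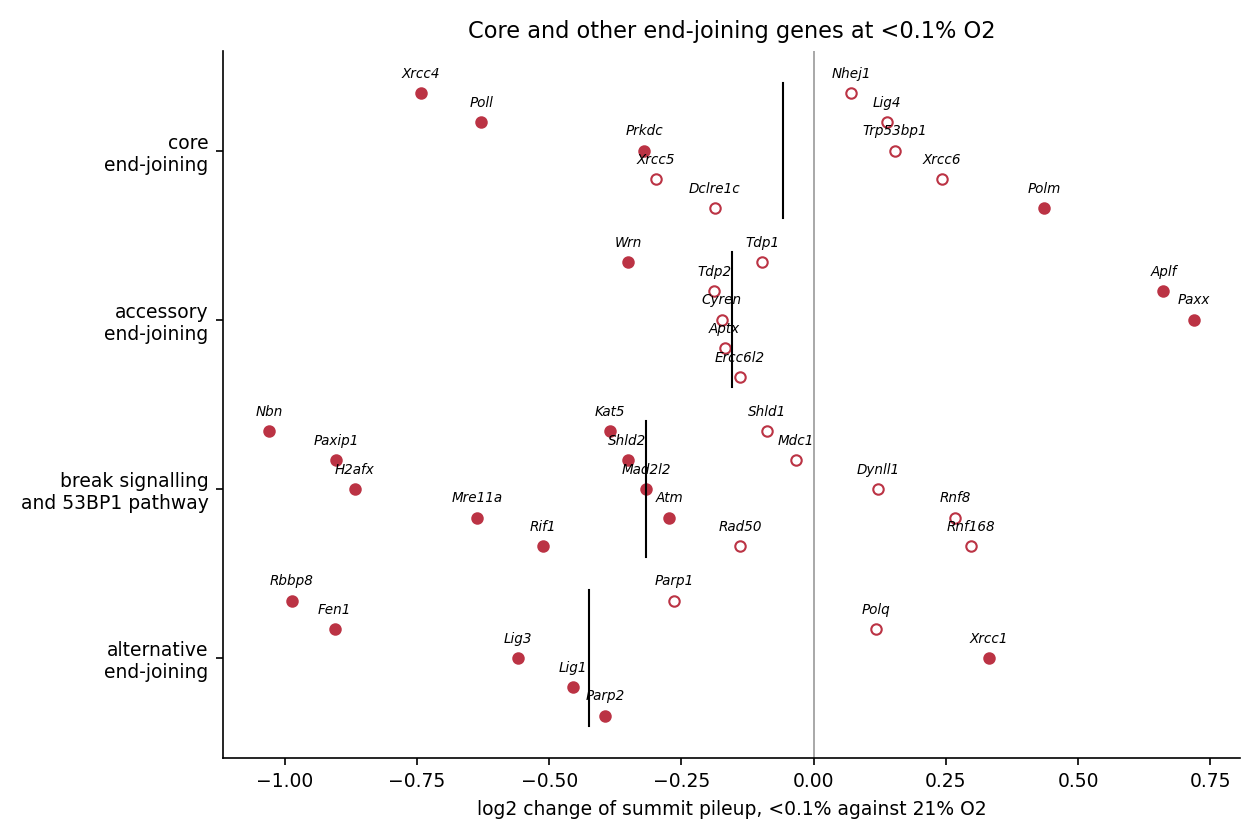
Log2 change of the summit pileup of the main promoter peak at <0.1% against 21% O2 (x axis) for the core genes and 3 other lists, 1 point per gene with a peak in all 6 libraries. Filled points passed an adjusted p of 0.05 and black lines mark list medians, -0.06 for the core genes, -0.15 for accessory, -0.32 for break signalling and -0.42 for alternative end-joining genes.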

How the data were processed

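ATACseq was measured in 6 libraries of GL261 cells. Reads were trimmed with Trimmomatic, aligned to mm10 with Bowtie2 2.2.5, and freed of duplicates (Picard), mitochondrial reads and low mapping quality by the authors, who then ran MACS2 2.1.1.2 on each library alone at a q of 0.001 and dropped blacklisted ones. Each deposited list holds a fold per peak, which is a ratio to the local background. It also holds the p-value and the q-value of the peak, both deposited as -log10, and the offset of its summit. Fold and p-value together gave the whole-number pileup and background at each summit, and the smallest background was read as genome coverage. Read counts were not used here, so limma 3.58.1 (R 4.3.3) on log2 pileups, with a variance trend and 3 groups, took the place of the study's count test.

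Consensus peaks were stretches over 200 bp shared by both replicates of a condition, merged across conditions. Scripts ran in Python 3.11.15 with pandas 2.3.3 and were checked on simulated data. Genes were named by a rule: the 10 core genes and genes with a start site within reach of their main peaks. Per other list, up to 3 genes in each direction with the largest called change were named too. Members and lists were chosen with earlier results of these data known. From the other lists, 1 gene was left out of the counts and is not reported here. Alternatives covered scaling, GC content, depth, threshold, overlap, window, the value tested, a replicate block and each library left out. The basic transcript set was added after seeing the data. Same-numbered libraries did not deviate together (correlations of -0.05, -0.01 and 0.01), so the numbers were not taken as pairs.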

Additional observations from a re-analysis of the deposited data

Results flagged for a closer look

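Among the intronic peaks of the 10 genes, away from their promoters, 2 were called in hypoxic libraries and in neither normoxic one, and no comparison above uses them. The one in Xrcc5 (chr1:72358075-72358484) had summit pileups of 28 and 19 fragments under 1% O2 and 20 and 22 under <0.1% O2, the latter 21.0 on average. The one in Nhej1 (chr1:75040462-75040764) had 24 in 1% O2 replicate 1 and 24 and 33 under <0.1% O2, the latter 28.5 on average. Both normoxic libraries were shallower and had fewer peaks called, 33006 and 36188 against 39348 to 43554, and the part of depth in these absences was not tested.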

How the results depend on the processing

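The share of promoter peaks called was counted only for the settings and levels where it is printed above. For the others it was not counted, so a changed count of main peaks below cannot be set against the background. All 10 genes kept a promoter peak in every library under a stricter threshold, a narrower window and equal list lengths. With the basic transcript set 9 did, as it leaves Nhej1 out. With a replicate block, 2 main peaks were higher in pileup at <0.1% O2, with Xrcc6 joining (limma, adjusted p = 0.0383). The same 2 were higher with only peaks of a -log10 q of at least 5, with a mean pileup of at least 20 and with quantile normalization. With the GC trend subtracted, alone or with the replicate block, 3 were higher at <0.1% O2, 1 lower at 1% O2 and 1 higher at <0.1% against 1% O2, and the block with the GC trend gave 2 higher at 1% O2. Quantile normalization gave 1 lower and 3 higher at 1% O2 and 1 lower at <0.1% against 1% O2, with Dclre1c at 0.0036 and Nhej1 at 0.061 at 1% O2. Genome coverage scaling gave 0 higher at <0.1% O2, 0 lower and 0 higher at 1% O2 and 1 lower between the hypoxic levels, with medians of -0.22 and 0.11. It put Lig4 at -0.026, Nhej1 at -0.094 and Trp53bp1 at -0.011 at <0.1% O2, and Dclre1c at 0.10 and Nhej1 at 0.13 at 1% O2. On log2 fold, 0 were lower at <0.1% O2 and 0 lower and 0 higher at 1% O2, with Prkdc at 0.18 and Nhej1 at -0.060 at <0.1% O2 and Polm at -0.078 at 1% O2. Thinned pileups, the mean pileup minimum, limma without the trend and a minimum change of 0.6 each left 1 lower at 1% O2. The last 2 left 0 higher there, and the minimum change left 0 higher at <0.1% O2. For <0.1% O2, limma without the trend gave adjusted p of 0.00258 for Xrcc4, 0.00382 for Poll and 0.0228 for Polm. The basic transcript set gave a median of -0.19 at <0.1% O2.

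Leaving out 1 library at a time gave 2 to 3 lower and 1 to 3 higher main peaks at <0.1% O2, and 1 to 2 lower and 0 to 3 higher at 1% O2. The medians ranged from -0.15 to -0.01 at <0.1% O2 and from -0.16 to 0.072 at 1% O2. The fold rank rule gave 2 to 3 lower and 1 to 2 higher at <0.1% O2, and 2 to 4 lower and 1 to 2 higher at 1% O2. Single genes near no change turned sign: Lig4 ranged from -0.028 to 0.31 and Trp53bp1 from -0.10 to 0.41 at <0.1% O2, and Dclre1c from -0.17 to 0.033 and Nhej1 from -0.20 to 0.13 at 1% O2. By rank within the whole list, 1 was lower at each level. Ranking the summit pileup left 0 higher at <0.1% O2 and 0 lower and 0 higher at 1% O2, with Prkdc at -6.88 points, and ranking -log10 q left 0 higher at both levels, with Prkdc at -3.05. Between <0.1% and 1% O2 the rule gave 1 to 2 lower and 2 higher without any 1 library, and 0 higher by rank within the whole list, by summit pileup (Prkdc at -1.13 and Xrcc4 at -3.70 points) and by -log10 q (Xrcc4 at -1.35). Calling changes of 5 points gave 4 lower at <0.1% O2. The cause of these moves was not tested. The Prkdc call at <0.1% O2 was lost with thinned pileups, limma without the trend, quantile normalization and genome coverage scaling (limma, adjusted p = 0.0501, 0.0627, 0.0811 and 0.0754) and with the minimum change of 0.6. Each group has 2 libraries, and summit pileups cover 1 point of each peak.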

Other observations

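Intronic peaks outside the promoter windows were found in 4 of the 10 genes, Xrcc5, Dclre1c, Xrcc4 and Nhej1. The largest in Xrcc5 (chr1:72372063-72372982) had unscaled pileups of 48 and 73 fragments in normoxia, 149 and 123 under 1% O2 and 156 and 111 under <0.1% O2. Within Xrcc4, whose promoter peak fell, the largest (chr13:89828467-89829071) had 92 and 123 in normoxia, 165 and 201 under 1% O2 and 192 and 155 under <0.1% O2. The largest in Nhej1 (chr1:74985255-74986085) had 192 and 231 in normoxia, 243 and 199 under 1% O2 and 298 and 229 under <0.1% O2. A small Dclre1c peak (chr2:3435107-3435425) was called in both normoxic libraries (15 and 18) and both 1% O2 libraries (23 and 18) and in neither <0.1% O2 library. These values are not scaled for depth, and the peaks were not tested.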
